A study of Mus musculus with 22 samples.

Results

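The Hoxb cluster is the group of 10 Hox genes on mouse chromosome 11, Hoxb1 to Hoxb9 and Hoxb13. Its members were taken by gene symbol from the gene annotation, and all 10 were found among the 37680 gene IDs of the count table. RNA had been sequenced from 22 pools of whole C57BL/6 mouse embryos. Mothers of 6 to 7 weeks had been mated with double homozygous males, so that every embryo of one line was ROSA26tg/+; Oct4tg/+ and every embryo of the other ROSA26tg/+; Nanogtg/+. The controls carried the same 2 alleles as the induced embryos and received no doxycycline, the drug that turns the transgene on. For the E7.5 induced pools it was injected into the mother's abdomen at E4.5 and then given in the water, and for the E9.5 induced pools it was given in the water from E6.5.

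Oct4 at E7.5 had 3 control and 3 induced pools, Nanog at E7.5 had 2 controls (replicates 2 and 3) and 3 induced pools (numbered 1, 3 and 4), Oct4 at E9.5 had 3 control and 3 induced pools (induced replicates 3 to 5), and Nanog at E9.5 had 2 control (replicates 2 and 3) and 3 induced pools. The E7.5 pools contained 8 to 12 embryos each and the E9.5 pools 3, so a p-value measures the spread between pools, and in a pool of whole embryos fewer cells of a type and less RNA per cell cannot be told apart. No group received doxycycline without a transgene. The labels name neither the promoter of the transgenes nor the cells in which they were active.

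Hox genes encode homeodomain transcription factors that give cells their position along the head to tail axis. In a cluster the genes lie in the order of their use: the 3′ members, such as Hoxb1, are switched on early and reach far forward, into the hindbrain, and the 5′ members are switched on later and stay further back. In the gastrulating embryo the cluster starts in the posterior primitive streak, where Wnt signals, Cdx factors and retinoic acid act on it, while Polycomb proteins keep the unused part silent. Oct4 and Nanog are transcription factors of the pluripotent epiblast, which is left behind as Hox expression starts.

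The members span 174 kb of chromosome 11, from 96055630 to 96229570 of build NCBIM37, all on the plus strand, with Hoxb1 at the high end (96227066 to 96229570). Hoxb13 lies at the low end, 74 kb from Hoxb9, its nearest relative in the cluster. Another 10 gene models lie within the span. The antisense model Hoxb3os shares 1632 bp of exon with Hoxb2, which is 49.4% of the Hoxb2 exons, and 1140 bp with Hoxb3. Hoxb7 and Hoxb8 share 1069 bp on the same strand, which is 40.4% of the Hoxb8 exons, and Hoxb5 shares 100 bp with the antisense model 0610040B09Rik. It is not stated whether the libraries keep strand, so the values of these overlapping genes are uncertain.

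The RefSeq promoter table held 3 of the 10 members, Hoxb1, Hoxb4 and Hoxb8, each as 250 bases before the RefSeq start of the gene and 50 after it (plus strand, build GRCm38.p6). The RefSeq start can differ from the start of the gene model whose reads were counted here. They are shown because no other member was in the table, and they lie in the 3′, middle and 5′ stretches of the cluster. Capitals mark matches on either strand to TGATNNAT (the site of Hox proteins with their Pbx partners), to TTTATG or TTTATT (caudal-type sites, read by Cdx factors) and to AGGTCA (the core site of retinoic acid receptors).
Hoxb1, chr11:96365508-96365807: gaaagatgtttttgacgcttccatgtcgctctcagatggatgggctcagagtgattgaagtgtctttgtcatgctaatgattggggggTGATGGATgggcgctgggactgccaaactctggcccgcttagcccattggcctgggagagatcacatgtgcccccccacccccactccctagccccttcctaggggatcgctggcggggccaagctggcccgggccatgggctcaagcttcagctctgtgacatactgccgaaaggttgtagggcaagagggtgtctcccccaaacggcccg
Hoxb4, chr11:96318017-96318316: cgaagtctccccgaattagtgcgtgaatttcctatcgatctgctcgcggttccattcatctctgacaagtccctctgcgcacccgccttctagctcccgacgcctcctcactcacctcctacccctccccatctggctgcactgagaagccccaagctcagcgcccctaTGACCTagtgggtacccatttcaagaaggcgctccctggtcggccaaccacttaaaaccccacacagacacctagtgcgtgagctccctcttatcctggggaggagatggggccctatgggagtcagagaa
Hoxb8, chr11:96281655-96281954: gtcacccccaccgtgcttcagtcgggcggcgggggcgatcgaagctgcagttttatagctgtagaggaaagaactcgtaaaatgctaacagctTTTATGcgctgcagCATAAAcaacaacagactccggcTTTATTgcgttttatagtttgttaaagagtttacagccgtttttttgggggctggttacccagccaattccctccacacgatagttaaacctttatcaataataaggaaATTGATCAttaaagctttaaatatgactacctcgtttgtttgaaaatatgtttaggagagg
The Hoxb1 window held 1 match to TGATNNAT, the Hoxb4 window 1 match to AGGTCA on the minus strand, and the Hoxb8 window 3 caudal-type matches and 1 match to TGATNNAT. The Hoxb8 window also had the lowest GC content, 42.3% against 59.3% for Hoxb1 and 58% for Hoxb4. Of 32851 RefSeq promoters of the same length, 8.85% held TGATNNAT, 27.6% a caudal-type match and 16.3% AGGTCA, so such matches are common letters and not sites shown to be bound. The octamer ATGCAAAT, the site of Oct4 and other POU factors, was in 1.74% of promoters and in 0 of these 3 windows, which says only that these letters are not there.

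Library totals ran from 4.72 to 42.3 M counts. Levels are given in CPM, that is, counts divided by a library's size after TMM scaling over all 22 libraries. The most that 0 observed counts leave possible, 3 counts, stood for 0.0756 to 0.597 CPM. The induced factors checked the labels. In the Oct4 line Pou5f1, the gene of Oct4, was at 220.8 to 254.4 CPM in E7.5 controls and 517.7 to 654.2 CPM in induced pools, and at 0.402 to 1.22 CPM in E9.5 controls and 240.7 to 263.4 CPM in induced pools. In the Nanog line Nanog was at 17.4 to 23.2 CPM in E7.5 controls and 57.3 to 123.2 CPM in induced pools, and at 1.99 to 2.29 and 326.4 to 330.3 CPM at E9.5. The Nanog-induced pools of E7.5 also held more Pou5f1, 475.6 to 613.4 CPM against 224.2 to 248.4 CPM. These counts do not separate transgene reads from those of the endogenous genes.

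The make-up of the cluster was read first, from levels divided by exon length (CPM per kb), the only scale on which genes are compared with each other here. In Oct4 E7.5 controls the 10 members summed to 44.3 ± 7.19 CPM per kb (SD, n = 3), of which Hoxb1 gave 65.2%. In Nanog E7.5 controls the sum was 42.4 ± 2.12 CPM per kb (SD, n = 2) and the Hoxb1 share 63.2%. Hoxb1 stood above every other member in all 4 groups of E7.5, with no overlap with the next member in any of them. In Oct4 E7.5 controls it was at 28.8 ± 4.51 CPM per kb, and it was followed by Hoxb6 at 4.51 ± 0.451 and Hoxb2 at 3.28 ± 1.19 CPM per kb, whose pools overlapped. Below these, Hoxb8, Hoxb4, Hoxb9 and Hoxb3 lay between 1.30 and 1.66 CPM per kb, each overlapping the next in the order, as Hoxb3 did with Hoxb5. Hoxb5 and Hoxb7 did not overlap, at 0.895 ± 0.0734 and 0.724 ± 0.0588 CPM per kb.

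At E9.5 another member was the highest. Hoxb9 stood above every other member in all 4 groups, again with no overlap with the next. Its share of the cluster was 39.9% in Oct4 controls and 45.0% in Nanog controls, against 3.34% and 3.79% in the E7.5 controls. The Hoxb1 share was 9.78% and 11.5% in the E9.5 controls, where it came 3rd after Hoxb8 in the Oct4 line and 2nd in the Nanog line, at 7.13 ± 1.37 and 7.78 ± 0.0309 CPM per kb. Hoxb1 to Hoxb4 together gave 78.9% of the cluster in Oct4 E7.5 controls and 30.0% in Oct4 E9.5 controls, and 77.6% and 27.9% in the Nanog line. The cluster as a whole summed to 72.7 ± 3.77 CPM per kb (SD, n = 3) in Oct4 E9.5 controls and 67.9 ± 6.07 CPM per kb (SD, n = 2) in Nanog E9.5 controls.

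**Figure D1:**
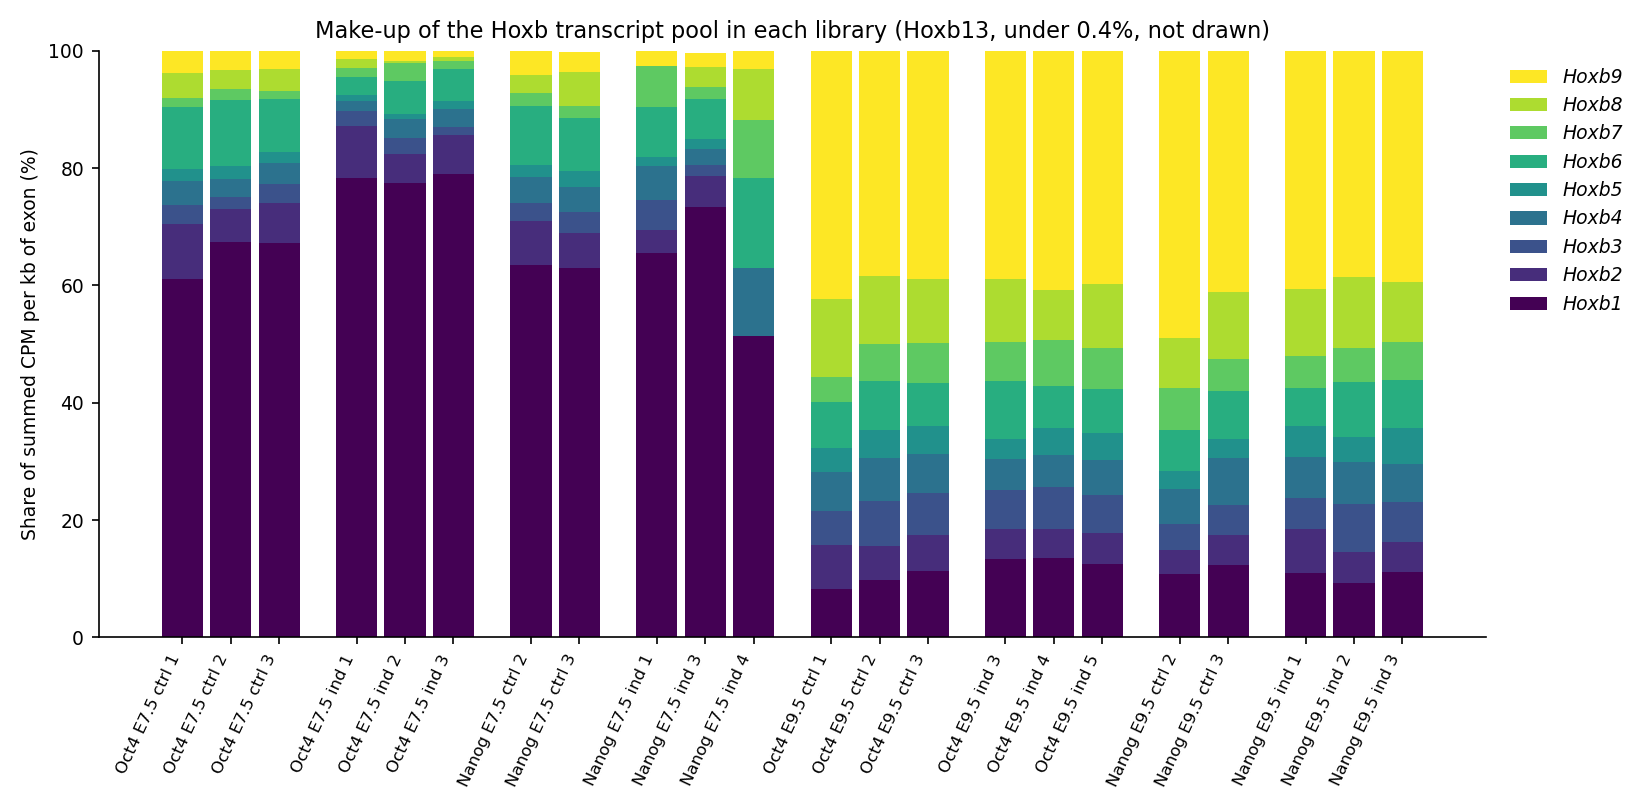
Share of each Hoxb gene (percent of the summed CPM per kb of the 10 members) in each of the 22 pools. Genes are stacked in cluster order, without Hoxb13, which was at 0.351% at most in a pool. Hoxb1 fills 51.4% to 78.99% of the E7.5 bars and Hoxb9 38.42% to 48.84% of the E9.5 bars.

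Hoxb13, the member for the tail bud and hindgut end of the axis, was at the limit of detection throughout. Its counts added up to 12 over the 22 libraries, with 3 counts at most in a library, and it did not pass the filter on low counts in any comparison. Every count of members below is therefore over the 9 genes Hoxb1 to Hoxb9, which passed it in every comparison. In the 6 induced pools of E9.5 Hoxb13 had 0 counts, where 3 counts would have been 0.269 to 0.597 CPM.

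The controls of E9.5 and E7.5 gave the change of each gene with stage. In the Oct4 line 7 of 9 members rose and 1 fell, where 73.5% of all tested genes passed the test in either direction, 36.5% upwards and 37.1% downwards. In the Nanog line 6 of 9 rose and 1 fell, where 63.8% of tested genes passed, 31.8% upwards and 32% downwards. With so many genes called, the members are described here by the sizes of their changes and the order of these along the cluster.

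Hoxb1, which marks the 4th hindbrain segment after its first phase in the streak, was the member that fell. It stood at 66.9, 56.5 and 77.5 CPM in the Oct4 E7.5 controls and at 13.9, 15.8 and 20.1 CPM in the Oct4 E9.5 controls, a log2 fold change of -2.05 ± 0.156 (SE, edgeR adjusted p = 4.72e-06). The lowest E7.5 pool was above the highest E9.5 pool. For the Nanog line it went from 64.6 and 59.7 CPM to 18.0 and 18.1 CPM, a log2 fold change of -1.78 ± 0.0891 (edgeR adjusted p = 1.59e-09), again with the stages apart.

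Hoxb9, the most 5′ of the 9 members and a gene of the trunk, moved furthest upwards. It rose from 4.57, 2.97 and 3.91 CPM to 78.7, 68.5 and 76.6 CPM in the Oct4 line, a log2 fold change of 4.27 ± 0.133 (edgeR adjusted p = 1.64e-09). The Nanog line gave a rise from 4.62 and 3.66 CPM to 90.7 and 67.3 CPM, a log2 fold change of 4.27 ± 0.272 (edgeR adjusted p = 0.000121). The E9.5 pools were far above the E7.5 pools in both lines.

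Between these ends the fold changes grew along the cluster, but not evenly. Hoxb2, another hindbrain gene, had log2 fold changes of 0.50 in the Oct4 line and 0.16 in the Nanog line (edgeR adjusted p = 0.156 and 0.453). Hoxb3, Hoxb4 and Hoxb5, genes of the hindbrain and neck levels, rose by log2 fold changes of 1.94 ± 0.273, 1.61 ± 0.182 and 1.87 ± 0.16 in the Oct4 line and 1.16, 1.37 and 1.05 in the Nanog line. Hoxb7 and Hoxb8, trunk genes, rose by 2.53 ± 0.186 and 2.35 ± 0.182 on the log2 scale in the Oct4 line and by 2.24 and 1.83 in the Nanog line. Hoxb6 broke the order, with 0.31 ± 0.119 in the Oct4 line (edgeR adjusted p = 0.0366, but 0.0931 with DESeq2 and 0.145 without the count filter) and 0.35 in the Nanog line (edgeR adjusted p = 0.0968). It had the second highest level per kb of the Oct4 E7.5 controls.

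**Figure D2:**
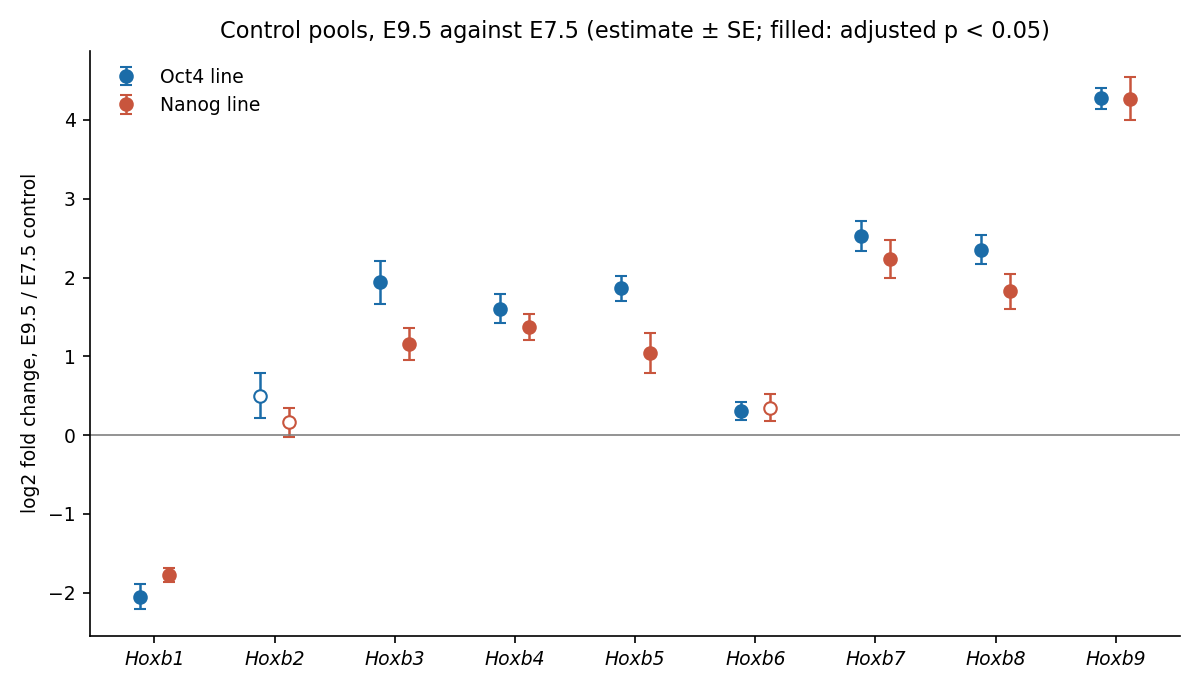
Log2 fold change (E9.5 control over E7.5 control) of Hoxb1 to Hoxb9 in cluster order, for the Oct4 line and the Nanog line, with bars of 1 SE. Hoxb1 lies at -2.05 and -1.78 below 0, Hoxb9 at 4.27 in both lines, and Hoxb6 dips between Hoxb5 and Hoxb7.

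Paralogues in the other clusters are given for comparison. Hoxd1, a counterpart of Hoxb1, fell by 1.05 on the log2 scale in the Oct4 line and by 0.82 in the Nanog line. At the position of Hoxb9, Hoxa9 and Hoxc9 rose by 3.48 and 3.33 in the Oct4 line, whereas Hoxd9 rose by 0.32. Of the caudal genes that act upstream of Hox genes, Cdx1 and Cdx2 fell by 4.93 and 4.03 in the Oct4 line, and Cdx4 had -0.93, which did not pass the test. All 9 TALE genes, whose products (Pbx, Meis and Pknox proteins) bind DNA together with Hox proteins, rose in both lines. Between the stages the embryo also changed in its tissues: the visceral endoderm and yolk sac markers summed to 2783 to 3648 CPM in Oct4 E7.5 controls and 34.0 to 51.4 CPM in Oct4 E9.5 controls, with no marker at 0 in either. Their part in the result was not tested.

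Induction of Oct4 up to E7.5 went with lower levels of the whole measured cluster. All 9 tested members fell, in a comparison where 6.17% of 16071 tested genes passed the test in either direction, 2.25% upwards and 3.91% downwards. The E7.5 control pools of this comparison are those of the comparison of stages. The median log2 fold change of the 9 was -2.36, against 0.0158 for all tested genes, and control and induced pools did not overlap for any of the 9. The cluster sum went from 44.3 ± 7.19 to 12.0 ± 3.69 CPM per kb (SD, n = 3 each).

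Hoxb1 kept the highest level of the members and had the smallest fold change. Its pools were at 66.9, 56.5 and 77.5 CPM without and 19.3, 16.7 and 29.8 CPM with doxycycline, a log2 fold change of -1.61 ± 0.212 (SE, edgeR adjusted p = 0.00322). Even the highest induced pool was well below the lowest control, though Hoxb1 stayed abundant in all 3. Its share of the cluster was 65.2 ± 3.56% in controls and 78.3 ± 0.748% in induced pools.

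Hoxb2 to Hoxb5 fell by 1.99 to 2.79 on the log2 scale. Hoxb2 was at 14.5, 6.68 and 11.4 CPM in controls and 3.09, 1.52 and 3.56 CPM in induced pools (-1.99 ± 0.362, edgeR adjusted p = 0.0151). It was the least secure call of the 9, since its adjusted p was 0.0922 without induced replicate 1 and 0.0503 without the count filter. Hoxb4 was at 7.99, 4.64 and 7.41 CPM in controls and 0.736, 1.22 and 2.05 CPM in induced pools (-2.36 ± 0.354, edgeR adjusted p = 0.00493). Hoxb5 was at 2.65, 2.28 and 2.62 CPM against 0.289, 0.225 and 0.611 CPM (edgeR adjusted p = 0.00177), the controls close together and every induced pool below 1 CPM.

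The 5′ members had the largest falls. Hoxb8 went from 5.23, 3.09 and 4.86 CPM to 0.418, 0.0988 and 0.329 CPM, a log2 fold change of -3.89 ± 0.411 (edgeR adjusted p = 0.00107). In induced replicate 2 that level stood for 3.07 expected counts, about the floor of 0.0966 CPM of that library. Hoxb9 went from 4.57, 2.97 and 3.91 CPM to 0.394, 0.419 and 0.393 CPM (-3.23 ± 0.254, edgeR adjusted p = 0.000353), with the 3 induced pools almost level. Hoxb6 went from 10.2, 8.38 and 9.45 CPM to 0.710, 1.10 and 1.83 CPM (-2.99 ± 0.289, edgeR adjusted p = 0.000758). Hoxb7, at 3.23, 2.87 and 2.77 CPM against 0.633, 1.13 and 0.849 CPM, fell less (-1.77 ± 0.246, edgeR adjusted p = 0.00345). Hoxb7 and Hoxb8 share exon sequence, so the split of reads between them bears on both values.

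**Figure D3:**
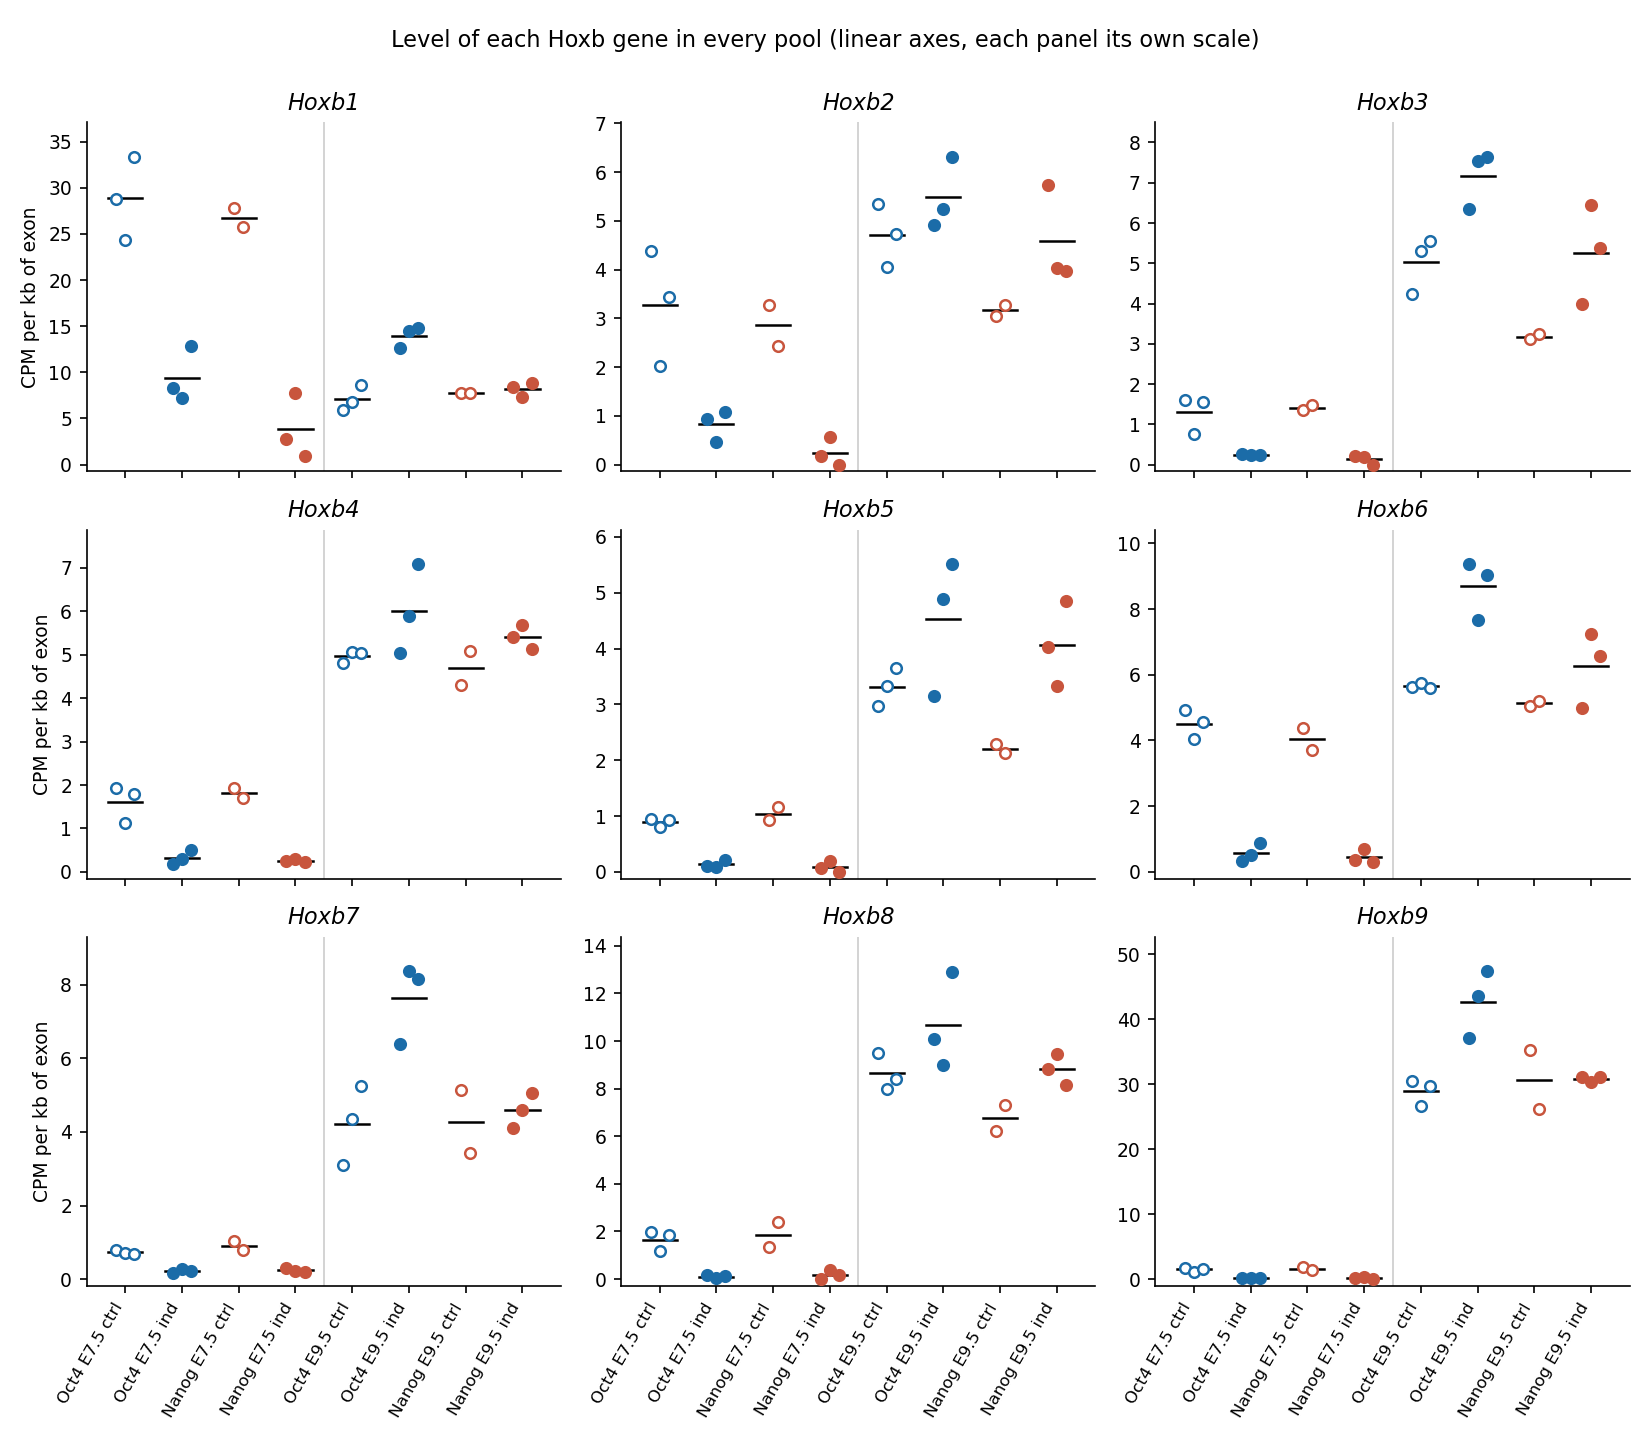
Level of Hoxb1 to Hoxb9 (CPM per kb of exon, linear axes that differ between panels) in each of the 22 pools, 1 panel per gene, with open symbols for control and filled symbols for induced pools, Oct4 in blue and Nanog in red. The black bar is the group mean. At E7.5 the filled symbols lie below the open ones in every panel, and at E9.5 the groups overlap, except that Hoxb1, Hoxb3, Hoxb6, Hoxb7 and Hoxb9 of the Oct4 line and Hoxb2, Hoxb3, Hoxb4, Hoxb5 and Hoxb8 of the Nanog line lie wholly above their controls.

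Other gene models within the cluster fell too. Hoxb3os, the antisense model over Hoxb2 and Hoxb3, fell from 32.8, 27.9 and 36.8 CPM to 10.9, 7.65 and 14.5 CPM (log2 fold change -1.57, edgeR adjusted p = 0.00308). Gm53, between Hoxb9 and Hoxb13, fell by 1.73 on the log2 scale (edgeR adjusted p = 0.0387). Of the 10 nearest genes outside the cluster 9 were tested and 2 fell, Ttll6 by 2.07 and Skap1 by 0.95 on the log2 scale, and 0 rose.

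The other Hox clusters also fell in the Oct4 E7.5 comparison: 4 of 8 tested Hoxa genes, 4 of 4 Hoxc genes and 5 of 8 Hoxd genes, with 0 higher. Hoxd1 fell by 1.26 on the log2 scale, beside the 1.61 of Hoxb1. Among the genes that act on the cluster, the 3 caudal genes fell, Cdx1 by 3.64, Cdx4 by 2.65 and Cdx2 by 0.99. Of 18 retinoic acid genes 4 fell and 1 rose: Aldh1a2, which makes retinoic acid, fell by 4.16 ± 0.237, Rarb, a receptor and textbook target, by 2.33, and the binding proteins Crabp2 and Crabp1 by 2.32 and 1.03. Cyp26a1, which breaks retinoic acid down, had 0.55 (edgeR adjusted p = 0.056).

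Of 18 streak and axis elongation signals 5 rose and 7 fell, with Wnt3 up by 2.54 and Wnt8a and Msgn1 down by 1.47 and 3.23. Of 9 tested genes of the hindbrain segment list 4 fell, Gbx2 by 1.77 among them, and the 1 that rose was Otx2, by 0.79. Of 9 TALE genes 1 rose and 4 fell, among them Meis2 and Meis1 by 1.18 and 1.19. Of 18 Polycomb genes 2 rose and 1 fell, and of 12 trithorax and H3K27 demethylase genes 0 passed the edgeR test. Some marker levels of embryonic tissues moved with the cluster as well. Of 6 paraxial mesoderm markers 4 fell and 0 rose, and they summed to 194.5 to 294.2 CPM in controls and 69.2 to 89.5 CPM in induced pools. Aldh1a2, already given as a retinoic acid gene, is among them, with means of 125.4 and 6.98 CPM. Tbx6 and Dll1 did not pass the test. Lateral and extraembryonic mesoderm markers summed to 211.1 to 237.2 and 92.6 to 134.7 CPM. Posterior streak and caudal markers, of which 5 of 7 fell and 1 rose, summed to 537.1 to 639.7 and 422.4 to 520.4 CPM. The 5 included the 3 caudal genes, and the 1 that rose was T, with means of 193.5 and 329.5 CPM (0.77, edgeR adjusted p = 0.00959). Visceral endoderm markers overlapped, at 2783 to 3648 and 2536 to 3210 CPM, and no marker of these lists was at 0. Their part in the fall of the Hoxb genes was not tested.

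Induction of Nanog up to E7.5 also went with lower Hoxb levels, with a wider spread between the induced pools. Of the 9 members 6 fell, Hoxb3 to Hoxb7 and Hoxb9, where 7.78% of 14118 tested genes passed in either direction, 2.96% upwards and 4.82% downwards. The median of the 9 was -3.10, against 0.00344 for all tested genes, and for none of them did control and induced pools overlap. The sum of the cluster was 42.4 ± 2.12 CPM per kb in controls (SD, n = 2) and 5.59 ± 4.46 CPM per kb in induced pools (SD, n = 3).

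The induced pools were far from alike, and Hoxb1 shows it. It was at 64.6 and 59.7 CPM in controls and at 6.54, 18.0 and 2.28 CPM in induced replicates 1, 3 and 4. All 3 were below the controls, but replicate 4 was further below replicate 3, as a ratio, than replicate 3 was below the controls. The log2 fold change of -2.65 ± 0.822 did not pass the test (edgeR adjusted p = 0.188). Replicate 3 had the highest level of the 3 for 7 of the 9 members and was also the deepest library of the 3, 26 M counts against 10.9 and 6.95 M. Hoxb2 followed the same order, 10.8 and 8.06 CPM against 0.573, 1.87 and 0 CPM (-3.18 ± 0.799, edgeR adjusted p = 0.0792).

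Hoxb4 and Hoxb6 were the members called whichever pool was left out. Hoxb4 was at 8.01 and 7.08 CPM in controls and 1.04, 1.19 and 0.911 CPM in induced pools, close together on both sides (-2.80 ± 0.307, edgeR adjusted p = 0.00165). Hoxb6 was at 9.09 and 7.67 CPM against 0.758, 1.47 and 0.607 CPM (-3.00 ± 0.378, edgeR adjusted p = 0.00274). Hoxb9 was at 4.62 and 3.66 CPM against 0.284, 0.655 and 0.152 CPM (-3.21 ± 0.51, edgeR adjusted p = 0.00749), where the last value stood for 1 count.

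The other members had few counts in the induced pools. Hoxb3 fell by 3.14 ± 0.588 (edgeR adjusted p = 0.0145), Hoxb5 by 3.16 ± 0.653 (0.021) and Hoxb7 by 1.96 ± 0.399 (0.0199) on the log2 scale. Summed with the gene models that overlap it, Hoxb3 gave -2.50 with an edgeR adjusted p of 0.0959. Hoxb8 had a log2 fold change of -3.10 ± 0.78, from 3.53 and 6.30 CPM to 0, 0.970 and 0.443 CPM, and did not pass (edgeR adjusted p = 0.0598). Hoxb2, Hoxb3 and Hoxb5 had 0 counts in induced replicate 4, where 3 counts would have been 0.456 CPM. The count of 6 was 2 without either control and 8 at most when another pool was left out, and it was 8 with DESeq2 and with limma-voom.

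Among the genes upstream, Cdx1 and Cdx2 fell by 4.49 and 1.28 on the log2 scale, and Cdx4 had -2.70 (edgeR adjusted p = 0.0732). Of 17 tested retinoic acid genes 4 fell and 1 rose: Aldh1a2 fell by 3.10, Rarb by 2.71, Crabp2 by 2.10 and Crabp1 by 1.81, and Cyp26a1 rose by 0.85. Of 18 streak and axis elongation signals 2 rose and 5 fell. Of 9 tested genes of the hindbrain segment list 2 fell, and the 1 that rose was Otx2, by 1.065. Of 9 TALE genes 4 fell, of 18 Polycomb genes 2 rose, and of 12 trithorax and H3K27 demethylase genes 1 fell. Fewer paralogues were tested here, and 1 of 5 Hoxa, 2 of 2 Hoxc and 2 of 7 Hoxd genes fell, with 0 higher. The 2 Hoxd genes were Hoxd1, by 1.57, and Hoxd9, at the position of Hoxb9, by 1.46 (edgeR adjusted p = 0.0121). The paralogues of positions 9 to 11 included 5 with positive log2 fold changes that did not pass: 0.54 for Hoxa9, 1.45 for Hoxa10, 1.63 for Hoxa11, 0.82 for Hoxd10 and 2.63 for Hoxd11 (edgeR adjusted p of 0.0783 to 0.7). Control and induced pools did not overlap for these genes except Hoxa9. The tested and untested Hoxa genes of the list summed to 23.5 to 24.4 CPM in controls and 24.8 to 79.3 CPM in induced pools. Several tissue markers moved along. Of 6 paraxial mesoderm markers, which include Aldh1a2, 4 fell and 0 rose. They summed to 255.4 to 285.6 CPM in controls and 46.5 to 67.0 CPM in induced pools. Posterior streak and caudal markers summed to 501.9 to 524.8 and 206.8 to 279.2 CPM, but only 3 of 7 passed, all lower, among them Cdx1 and Cdx2. T overlapped, with means of 163.9 and 155.6 CPM, and Fgf8 had 1.74 (edgeR adjusted p = 0.104). Visceral endoderm markers were also lower, 2259 to 2415 against 971.5 to 1366 CPM, and trophoblast markers higher, 57.9 to 140 against 277.4 to 373.8 CPM, so the pools differed in extraembryonic RNA too. The part of these markers in the values of the Hoxb genes was not tested.

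**Figure D4:**
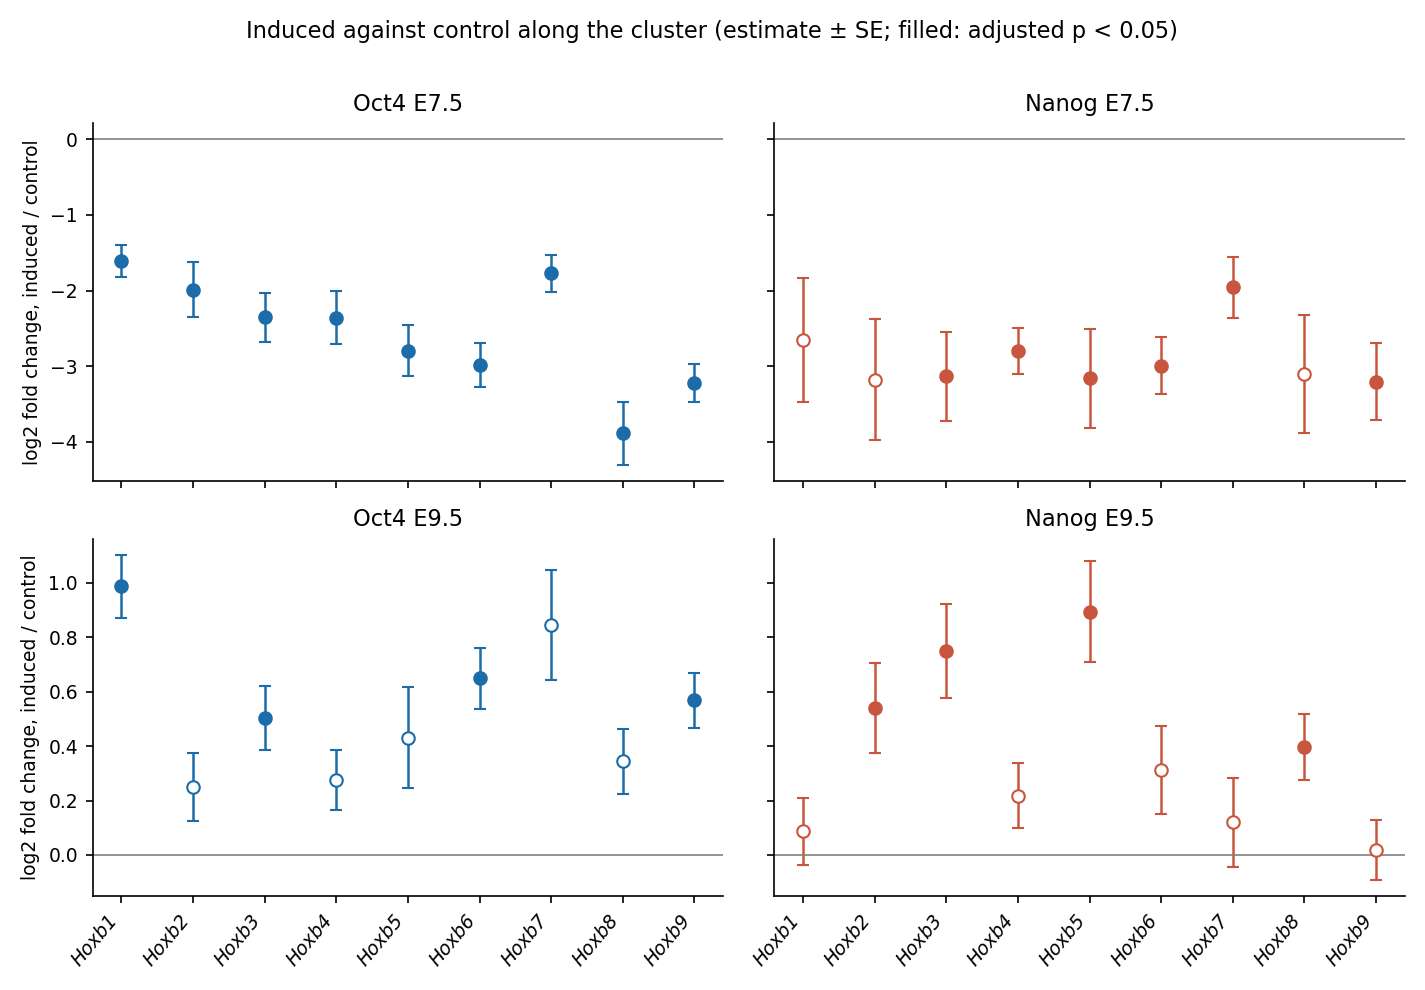
Log2 fold change (induced over control, with bars of 1 SE) of Hoxb1 to Hoxb9 in cluster order, 1 panel per induction. Filled points passed the edgeR test at an adjusted p under 0.05. At E7.5 all points lie below -1.6, and at E9.5 all lie between 0 and 1.

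The E7.5 inductions were compared with each other by an interaction contrast, Nanog minus Oct4. The differences ran from -1.12 to 0.81 on the log2 scale with standard errors of 0.433 to 0.924, and 0 of 9 members passed the edgeR test, where 0.204% of tested genes did, 0.0659% with a higher and 0.138% with a lower effect in the Nanog line. At an unadjusted p under 0.05 the count was also 0, as it was with DESeq2 and with limma-voom, and the lowest edgeR adjusted p was 0.75. The standard errors were about as large as many of the differences, so the result does not show that the inductions act alike.

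At E9.5, after doxycycline from E6.5, the members called in the Oct4 line were higher in the induced pools. Hoxb1, Hoxb3, Hoxb6 and Hoxb9, 4 of 9, rose and none fell, where 9.29% of 13957 tested genes passed in either direction, 4.69% upwards and 4.61% downwards. All 9 log2 fold changes were positive, with a median of 0.50 against 0.00215 for all tested genes. The cluster sum was 72.7 ± 3.77 CPM per kb in controls and 106.8 ± 11.9 CPM per kb in induced pools (SD, n = 3 each).

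Hoxb1 had the largest change, from 13.9, 15.8 and 20.1 CPM to 29.4, 33.6 and 34.4 CPM, a log2 fold change of 0.99 ± 0.115 (edgeR adjusted p = 4.8e-05). All induced pools were above all controls, though below every E7.5 control pool. Hoxb6 rose from 11.7, 11.9 and 11.6 CPM to 19.5, 15.9 and 18.8 CPM (0.65 ± 0.111, edgeR adjusted p = 0.000823). Hoxb9 rose from 78.7, 68.5 and 76.6 CPM to 95.4, 112 and 121.8 CPM (0.57 ± 0.101, edgeR adjusted p = 0.0151), and Hoxb3 from 12.7, 15.9 and 16.7 CPM to 19.1, 22.7 and 23.0 CPM (0.50 ± 0.116, edgeR adjusted p = 0.0095). The groups were apart for each of these 4.

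Hoxb7 was the nearest to the threshold among the rest, with 12.7, 17.7 and 21.4 CPM against 26.1, 34.2 and 33.3 CPM (0.85 ± 0.202, edgeR adjusted p = 0.0577). Its groups did not overlap, and the controls were widely spread. Hoxb2, Hoxb4, Hoxb5 and Hoxb8 had log2 fold changes of 0.25 to 0.43 and edgeR adjusted p of 0.0936 to 0.245. The call count depended on the fit: it was 5 with DESeq2 and with limma-voom, 8 without the count filter, 2 in a single model over all groups, and 3 to 7 with a pool left out, with the 7 reached without induced replicate 3. Hoxb9 lost its call without control replicate 3 (edgeR adjusted p = 0.0753) or induced replicate 4 (0.0646), and Hoxb3 without induced replicate 5 (0.0761). Hoxb1 and Hoxb6 kept theirs in all 6 fits with a pool left out, but each lost it in another alternative. Of the 4 calls 1 was kept in every alternative other than leaving out a pool, and 0 were kept in all fits. Summed with the models that overlap them, Hoxb7 and Hoxb8 together gave 0.58 (edgeR adjusted p = 0.000836) and Hoxb2, Hoxb3 and Hoxb3os 0.38 (0.0021).

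The antisense model 0610040B09Rik, which starts between Hoxb5 and Hoxb4 and runs to the 5′ side of Hoxb6, had the largest change among the tested models of the cluster. It rose from 7.41, 5.39 and 9.42 CPM to 19.6, 16.9 and 18.8 CPM, a log2 fold change of 1.39 ± 0.162 (edgeR adjusted p = 3.39e-05), and the groups were far apart. At E7.5 it was at 0.404 CPM or less in every pool. Of the genes flanking the cluster 7 were tested, and 0 passed the edgeR test.

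Of the paralogues tested in the same comparison, 6 of 9 Hoxa, 5 of 7 Hoxc and 5 of 8 Hoxd genes rose, with 0 lower. Hoxd1 rose by 0.92 on the log2 scale, near the 0.99 of Hoxb1, and Hoxa9, Hoxc9 and Hoxd9 by 0.84, 0.87 and 0.87. Of the caudal genes Cdx1 rose by 2.58 ± 0.159 (edgeR adjusted p = 7.61e-09), and Cdx2 and Cdx4 had 1.62 and 1.99 (edgeR adjusted p = 0.0799 for each). Of 17 tested streak and axis elongation signals 10 rose and 0 fell, among them Wnt8a by 4.89, Msgn1 by 2.83 and Tbx6 by 1.93. Of 10 genes of the hindbrain segment list 6 rose, including Egr2, which marks the segments on either side of that of Hoxb1, by 3.43. Otx2, also on that list, had -0.34 and did not pass. Of 18 retinoic acid genes 4 rose, Aldh1a2 by 0.51 among them, and 3 fell, among them Crabp2 by 0.35 and Aldh1a3 by 1.96. Of 9 TALE genes 2 rose, of 18 Polycomb genes 2 rose, and of 12 trithorax and H3K27 demethylase genes 3 fell.

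**Figure D5:**
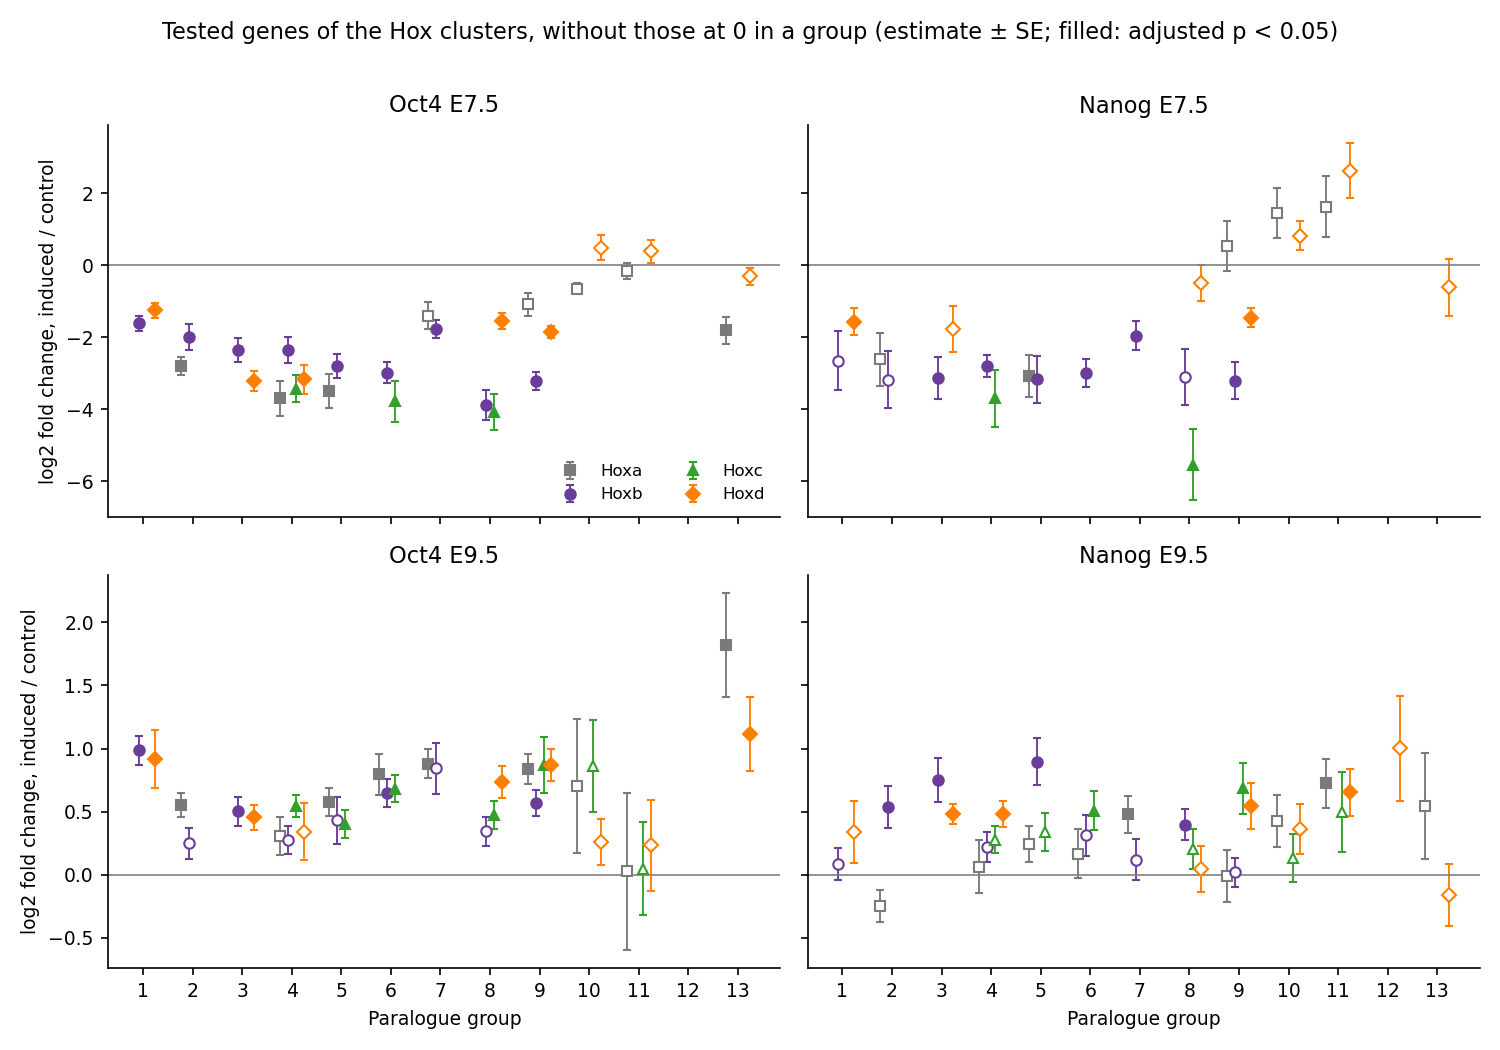
Log2 fold change (induced over control) of tested genes of the Hox clusters by paralogue number, 1 panel per induction; genes at 0 in a group are left out. Bars are 1 SE and filled points passed the edgeR test. The Hoxb points lie below 0 at E7.5 and above 0 at E9.5, and at E7.5 the genes of groups 10 and 11 of the other clusters, none of which passed, lie nearer to 0 or above it.

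Some tissue markers again moved with the cluster in the Oct4 line at E9.5. Posterior streak and caudal markers, which include the Cdx genes, summed to 29.7 to 63.0 CPM in controls and 151.9 to 152.4 CPM in induced pools. Paraxial mesoderm markers summed to 167.5 to 187.4 and 228 to 248.3 CPM. Hindbrain and neural tube markers went the other way, 122.2 to 124.9 against 114.9 to 120.3 CPM. Within that list Olig2 fell by 2.60 and Egr2 rose by 3.43 on the log2 scale. The sum of the maternal and blood markers was higher too, 15.8 to 37.7 against 108.6 to 132.3 CPM, with 1 of 6 at 0 in the induced pools. Only the blood marker Hbb-b1 had enough counts to be tested, with means of 25.9 and 117.7 CPM. The other markers of this list had means below 1 CPM in both groups, so the higher sum was that of Hbb-b1. The part of these tissue markers in the rise of the Hoxb genes was not tested.

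In the Nanog line at E9.5 Hoxb5, Hoxb3, Hoxb2 and Hoxb8 rose, 4 of 9 members, of which Hoxb3 was called in the Oct4 line too. In this comparison 28.4% of 13305 tested genes passed in either direction, 15.4% upwards and 13% downwards. Depth went with treatment here: the control libraries held 15.8 and 15.7 M counts and the induced ones 4.77, 5.63 and 5.15 M. The part of depth in these values was not tested. The median log2 fold change of the 9 was 0.31, against 0.00375 for all tested genes, and the cluster sum was 67.9 ± 6.07 CPM per kb in controls (SD, n = 2) and 78.1 ± 1.35 CPM per kb in induced pools (SD, n = 3).

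Hoxb5 rose from 6.42 and 5.97 CPM to 11.3, 9.37 and 13.7 CPM (log2 fold change 0.89 ± 0.186, edgeR adjusted p = 0.00242). Hoxb3 rose from 9.37 and 9.72 CPM to 12.0, 19.4 and 16.2 CPM (0.75 ± 0.172, edgeR adjusted p = 0.00448). Control pools were close together for both, and every induced pool was above them. Hoxb2 rose from 10.1 and 10.8 CPM to 19.0, 13.3 and 13.1 CPM (0.54 ± 0.166, edgeR adjusted p = 0.022), and Hoxb8 from 16.4 and 19.3 CPM to 23.3, 25.0 and 21.6 CPM (0.40 ± 0.122, edgeR adjusted p = 0.0227). Hoxb5 and Hoxb3 kept their calls whichever pool was left out. Hoxb2 lost its call without control replicate 2 (edgeR adjusted p = 0.133), control replicate 3 (0.0582) or induced replicate 1 (0.127), and Hoxb8 without control replicate 2 (0.254), induced replicate 1 (0.0508) or induced replicate 2 (0.0796). The count of called members was 2 without control replicate 2 and 2 without induced replicate 1.

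The ends of the cluster gave small values here. Hoxb1 was at 18.0 and 18.1 CPM in controls and 19.5, 17.1 and 20.6 CPM in induced pools, and Hoxb9 at 90.7 and 67.3 CPM against 79.9, 78.0 and 80.1 CPM. Both overlapped, with log2 fold changes of 0.09 and 0.02 (edgeR adjusted p = 0.637 and 0.921). Hoxb4, Hoxb6 and Hoxb7 had 0.22, 0.31 and 0.12 and did not pass. The antisense model 0610040B09Rik rose from 7.35 and 7.28 CPM to 12.9, 11.9 and 11.3 CPM (0.73 ± 0.16, edgeR adjusted p = 0.00345). The count of 4 became 2 with DESeq2 and 0 in a single model over all groups.

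Of the caudal genes 0 of 3 passed the edgeR test, with log2 fold changes of 0.12, 0.33 and -0.40 for Cdx1, Cdx2 and Cdx4. Among the paralogues 2 of 9 Hoxa, 2 of 7 Hoxc and 4 of 9 Hoxd genes rose and 0 fell. Hoxd1 had 0.34, which was not past the threshold. Of 17 retinoic acid genes 5 rose and 3 fell, with Rara up by 0.56 and Rarb down by 0.35. Of 15 tested streak and axis elongation signals 6 rose and 1 fell. Of 9 tested genes of the hindbrain segment list 4 rose, and the 1 that fell was Otx2, by 0.40. Of 9 TALE genes 2 rose, of 18 Polycomb genes 4 rose and 5 fell, and of 12 trithorax and H3K27 demethylase genes 4 rose and 2 fell. Hindbrain and neural tube markers summed to 123.6 to 129.3 CPM in controls and 89.2 to 99.7 CPM in induced pools, and maternal and blood markers to 18.3 to 23.0 and 47.9 to 56.4 CPM. Of the latter only the blood marker Hbb-b1 was tested, with means of 17.4 and 52.2 CPM. The decidua marker Prl8a2 had 2.84 and 0.303 CPM, and the rest of that list had means below 1 CPM. Posterior streak and caudal markers overlapped in their sum, at 42.5 to 56.7 and 51.4 to 62.7 CPM, but 3 of 7 rose and 1 fell. T rose by 0.74, Fgf8 by 0.61 and Wnt3a by 0.58 on the log2 scale, and Nkx1-2 fell by 0.78. The part of these markers in the Hoxb values was not tested.

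Between the E9.5 inductions 1 of 9 members passed the interaction contrast, Nanog minus Oct4. Of all tested genes 13.5% passed, 7.92% with a higher and 5.57% with a lower effect in the Nanog line. The count is thus near the share of all genes and sets the cluster apart in no way. The member was Hoxb1, with -0.90 ± 0.172 (edgeR adjusted p = 0.00149), so its estimated rise was larger in the Oct4 line. The call held in all 11 fits that left out 1 pool. It was lost in a single model over all groups (edgeR adjusted p = 0.493) and in a fit with the replicate number as a block. Hoxb9 had -0.55 with an edgeR adjusted p of 0.105 and Hoxb7 -0.73 ± 0.327 with 0.183, and the other members lay between -0.34 and 0.46 and did not pass.

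The change of direction between the stages was tested within each line, E9.5 minus E7.5 induction effect. In the Oct4 line 9 of 9 members had a higher effect at E9.5, where 6.69% of tested genes differed in either direction, 4.84% with a higher and 1.85% with a lower effect. The difference was smallest for Hoxb2, 2.23 on the log2 scale, and largest for Hoxb8, 4.20. In the Nanog line 8 of 9 were higher, against 12.8% of genes in either direction, 8.02% higher and 4.79% lower, from 2.07 for Hoxb7 to 3.99 for Hoxb5, and Hoxb1 had 2.70 with an edgeR adjusted p of 0.0941. These contrasts use the same pools as the inductions above and are no further evidence for them. The start of doxycycline differed between the stages as well, so stage and start of treatment cannot be told apart.

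Over the 8 group means of log2 CPM (pseudocount 0.5) most members kept the same profile. Pearson's r of a member with the mean of the other 8 was 0.938 to 0.995 for Hoxb2 to Hoxb9 and 0.25 for Hoxb1, whose level was high at E7.5. Pairs of members ran from 0.0621 to 0.998 with a median of 0.952. The 8 points share pools, stages and lines, so these values are a description. By the same measure the genes outside the Hox clusters whose profile was most like the mean of Hoxb1 to Hoxb9 were Pax2 (r = 0.996), Fgfr2 (0.995), Igf2 (0.995), Zfp503, Popdc2 and Kif26b (0.993), out of 12458 genes compared, of which 846 were over 0.9. Pax2, a transcription factor of the midbrain-hindbrain boundary, intermediate mesoderm and ear, was at 2.78 ± 0.966 CPM in Oct4 E7.5 controls, 0.596 ± 0.128 CPM in induced pools, 5.67 ± 0.191 CPM in Oct4 E9.5 controls and 7.91 ± 0.0937 CPM in induced pools (SD, n = 3 each).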

How the data were processed

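RNA was sequenced from 22 pools of whole embryos in 8 groups, formed from the labels. The authors deposited 1 table of expected counts per gene and library, made with RSEM 1.17 on build NCBIM37, per the submitters' processing notes, which also name cutadapt, Picard and limma. Of the values of a library 12.8% to 21.4% were not whole, since RSEM divides reads that fit several genes. Counts were rounded and tested per comparison in edgeR 4.0.16 (R 4.3.3) by the quasi-likelihood method (TMM scaling, filterByExpr, robust dispersions, two-sided), and p-values were adjusted by Benjamini-Hochberg over all genes tested, with calls at an adjusted p under 0.05. Adjusted p are edgeR's where no other tool is given, and n is the number of pools.

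Of 37680 gene IDs, 37309 were in the GENCODE annotation M1 (Ensembl 65), which gave symbols, coordinates and exon lengths. Differences between inductions were interaction contrasts over 4 groups. The members and the companion lists were chosen with earlier results of these data known. Named genes were all members and other tested models of the cluster, paralogues of a member, up to 4 genes per list by lowest p, and the 6 genes most alike in profile, of at least 5 CPM. Other genes of the lists were named after their values were seen. Some genes are left out of the report and of the counts of the lists. Kmt2 genes were matched through older symbols, Sox1 was not matched, and Trf and Hoxa3 are divided over models. Alternatives were RLE size factors, no count filter, DESeq2 1.42.0, limma-voom (limma 3.58.1), 1 model over all libraries, single libraries left out and the replicate number as a block. Scaling by total counts and summing overlapping models were chosen after seeing the data.

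Totals were 4.72 to 42.3 M counts per library. The limits for 0 counts reflect counting error alone, as no molecular identifiers are named and reads may be copies of one molecule. Over 20 pairs of libraries within groups, chi-square per degree of freedom was 1.6 to 67.1, for genes with at least 20 summed counts, so each pair differed by more than sampling noise. Which of the 2 sequencers read a library is not stated, and sequencer and group cannot be told apart. Replicate numbers were not taken as pairs: same-numbered pools had correlated deviations in part of the pairs only.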

Additional observations from a re-analysis of the deposited data

Results flagged for a closer look

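The effect of induction on Hoxb genes differed between groups in 18 tests of the difference itself (interaction contrast, edgeR). Between the lines 0 of 9 members passed at E7.5 and 1 of 9 at E9.5, where 0.204% and 13.5% of all tested genes did. Between the stages 9 of 9 passed in the Oct4 line and 8 of 9 in the Nanog line, where 6.69% and 12.8% of all tested genes did. Between the lines at E9.5, Hoxb1 responded less to Nanog than to Oct4, by -0.90 on the log2 scale. That call was lost in 1 model over all libraries and with the replicate number as a block. Between the stages in the Oct4 line, the effect was higher at E9.5 than at E7.5 by 2.60 for Hoxb1, 2.23 for Hoxb2, 2.86 for Hoxb3, 2.66 for Hoxb4, 3.25 for Hoxb5, 3.64 for Hoxb6, 2.63 for Hoxb7, 4.20 for Hoxb8 and 3.78 for Hoxb9. In the Nanog line it was higher by 3.61 for Hoxb2, 3.83 for Hoxb3, 2.99 for Hoxb4, 3.99 for Hoxb5, 3.24 for Hoxb6, 2.07 for Hoxb7, 3.40 for Hoxb8 and 3.10 for Hoxb9. Groups of 2 or 3 pools are too small for a test of single outlying pools.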

How the results depend on the processing

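No fold change of a called Hoxb gene changed sign under any alternative run. The number of called members moved by over 1.5 times as follows, and the cause was not tested. For Oct4 E9.5 the 4 calls became 8 without the count filter, 2 in 1 model over all libraries and 3 to 7 with a pool left out. For Nanog E9.5 the 4 became 2 with DESeq2, 0 in 1 model and 2 to 4 with a pool left out, and for Nanog E7.5 the 6 became 2 to 8. For Nanog minus Oct4 at E9.5 the 1 became 2 with DESeq2, 2 with limma-voom, 0 in 1 model and 1 to 2 with a pool left out. Signs turned only for values that were not called: Hoxb9 in Nanog E9.5 was -0.0038 without the count filter and -0.18 to 0.24 with a pool left out, Hoxb7 there -0.14 to 0.43, and Hoxb2 in the stage comparison of the Nanog line -0.050 to 0.37. Summing Hoxb2, Hoxb3 and Hoxb3os gave a rise with stage of 0.73 and 0.52 (edgeR adjusted p = 0.00134 and 3.06e-05), where Hoxb2 alone was not called.

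With the replicate number as a block, members called were 9 for Oct4 E7.5, 3 for Nanog E9.5 (Hoxb2 0.35, adjusted p = 0.153), 8 and 7 for the stages in the Oct4 and Nanog lines (Oct4: Hoxb2 called with 0.00459, Hoxb6 0.0503), and 0, 1, 8 and 9 for the interactions. There Hoxb1 of Nanog minus Oct4 at E9.5 had an adjusted p of 0.156, so that the 1 call was another member, and Hoxb4 of the Oct4 line 0.0661. Same-numbered pools of Oct4 E7.5 correlated by 0.179, 0.209 and 0.0406 in their deviations, each best with its own number, and the others by -0.041 to 0.0318. No paired analysis was possible for Nanog E7.5 and Oct4 E9.5 because control and induced pools share only the number 3.

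Over all genes, calls of Oct4 E7.5 went from 991 to 1638 in 1 model and as low as 438 with a pool left out; of Nanog E7.5 from 1099 to 1721 without the filter, 2737 in 1 model and 161; of Oct4 E9.5 from 1297 to 715 with DESeq2, 312 and 625; of Nanog E9.5 from 3772 to 2348, 1958 and 1482. Nanog minus Oct4 gave 34 at E7.5 (232 with DESeq2, 13 with limma-voom, 177 in 1 model) and 1970 at E9.5 (229 in 1 model), and the Nanog-line interaction 1907 (807 with a pool left out). Scaled by total counts, the higher share of calls went from 49.6% to 61.6% for stage in the Oct4 line, where the median of all genes moved to 0.182, from 54.2% to 64.2% for Nanog E9.5 and from 62.6% to 79.9% for the Nanog-line interaction, with every member count within 1.5 times.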
